A study of Homo sapiens with 12 samples.

Results

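The transcriptomes of GCTM-5 positive SW1990 and GCTM-5 positive CFPAC-1 cells were compared. GCTM-5 is a monoclonal antibody to a surface glycoprotein antigen of liver and pancreatic ductal progenitors that is also displayed by pancreatic cancer cells. SW1990 is an established pancreatic ductal adenocarcinoma line from a splenic metastasis, and CFPAC-1 is one from a liver metastasis of a patient with cystic fibrosis. The members are the 6 samples labelled antigen positive, of 12 in the series. The other 6 are the antigen negative samples of both lines and enter here only to show where the line difference is not the same. Each of the 4 groups holds 3 samples. Both lines were grown as monolayers in the same serum-supplemented Iscove's medium by the labels (the methods name RPMI), dissociated, stained live with GCTM-5 and sorted by flow cytometry, and no drug or transgene is named. Gates took the brightest and the unstained cells and left out those between, so a positive sample is the brightly stained fraction of its own line, and whether the gates of the lines correspond in brightness was not tested. The samples are triplicate sorts of 1 culture line each, so p-values measure the spread between sorts and not between patients. The paper's supplement names C-CAMP and Agrigenome for library construction and sequencing, without saying which samples each handled. What differs between the lines, their origin, genome, gate and any difference in handling included, cannot be told apart.

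Pancreatic ductal adenocarcinoma is commonly divided into a classical programme, led by gastrointestinal and foregut transcription factors, mucins and digestive secretory proteins, and a basal-like programme with squamous keratins and small proline-rich proteins. The GCTM-5 antigen travels on a large glycoprotein complex together with the sialyl Lewis A sugar, known clinically as CA 19-9, which fucosyltransferases and sialyltransferases build on the chains of mucins and other carriers.

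The deposited values are RPKM, reads scaled to gene length in kilobases and to library size, for 23346 genes. The 16016 genes with a mean of at least 0.1 RPKM over the 6 positive samples were tested on log2(RPKM + 0.1), a scale that understates the difference of low genes. A gene was called when it differed over 2-fold with a Benjamini-Hochberg adjusted p under 0.01 in limma. In what follows, a log2 difference is SW1990 minus CFPAC-1 on that scale, a signed number in parentheses after a gene is that difference, a level is mean ± SD RPKM over 3 samples, levels joined by 'against' give SW1990 first unless the line is named, and all levels and calls belong to positive cells unless negative cells are named. Library totals, recovered from the values, ran from 16973802 to 19399593 reads in SW1990, and were 26159330, 18773123 and 9969697 in CFPAC-1. The shallowest of these, CFPAC-1 replicate 3, stood apart from the other 2 on the second principal component (-54.38 against 26.18 and 26.89), which held 7.03% of the variance. The line difference lay on the first, with 81.9%. Where a line had no read of a gene, the fold is given as a lower bound against 3 reads in each library, which covers counting error only since PCR copies are not independent molecules. In such bulk samples, fewer cells with a transcript and less of it per cell cannot be told apart.

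In positive cells, 2119 genes (13.2% of those tested) were higher in SW1990 and 2027 (12.7%) were higher in CFPAC-1, 25.9% in all. These shares are the background for every count of called list members below. Which line had more called genes depended on the setting, since the split was 2005 and 2155 with each sample centred on its median. The samples of the lines did not overlap for 10310 genes (64.4%), 5455 of them (34.1%) with every SW1990 sample on top. Among the called genes, 166 were over 16-fold higher in SW1990 and 284 over 16-fold higher in CFPAC-1. Called genes without a read in any sample of a line numbered 189 for SW1990 and 91 for CFPAC-1. The median log2 difference over all genes tested was 0.06. Without CFPAC-1 replicate 3, 2237 genes were higher in SW1990 and 2022 in CFPAC-1. Of the original calls, 1945 and 1830 were kept, 174 and 197 were lost, and 0 turned direction.

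**Figure D1:**
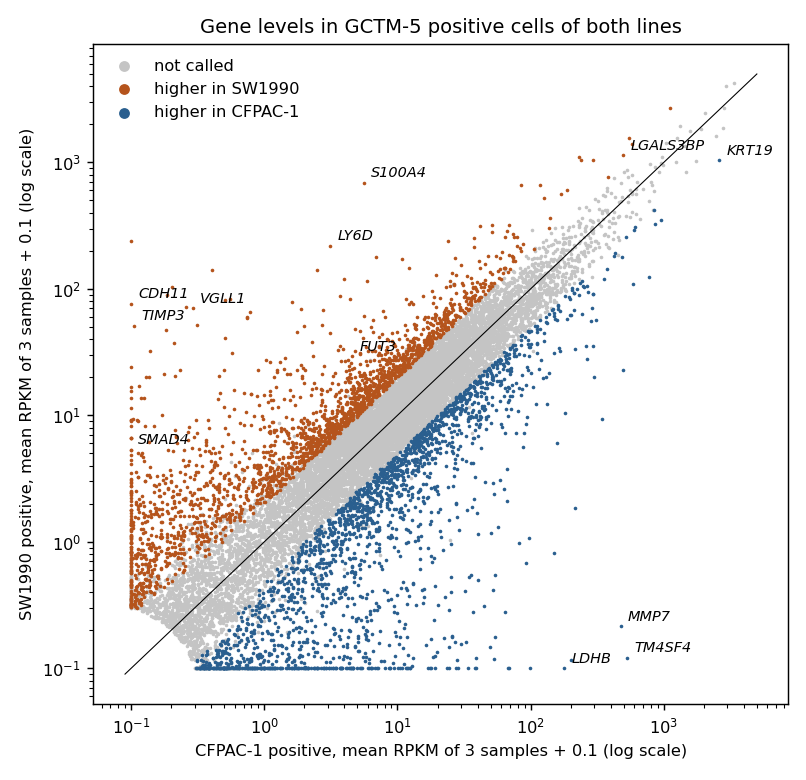
Mean RPKM of each gene in GCTM-5 positive CFPAC-1 cells (x axis) and SW1990 cells (y axis), both with 0.1 added and on a log10 scale. Each point is 1 tested gene, with colours for genes higher in SW1990, higher in CFPAC-1 or not called. Some genes not reported here were not drawn. Called genes (2119 and 2027 over all genes tested) lie on both sides of the diagonal at all levels, and genes at 0.1 on an axis have no read in that line.

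The gene with the largest difference in favour of SW1990 was *CALB1*, which encodes the calcium-binding protein calbindin. Its levels were 234, 244 and 241 RPKM in the SW1990 samples and 0 in every CFPAC-1 sample, at least 3158-fold higher (limma adjusted p = 1.11e-08). It was followed by *CDH11*, a mesenchymal cadherin, at 76.3 ± 16.2 RPKM against 0 (at least 1452-fold higher) and by *SERPINB2*, the plasminogen activator inhibitor PAI-2, at 103 ± 25.6 against 0.104 ± 0.0396 RPKM (log2 difference 8.98, limma adjusted p = 2.58e-07). These 3 genes had next to no reads in CFPAC-1. *TIMP3*, an inhibitor of metalloproteinases, stood at 51.1 ± 9.57 RPKM with at most 2 reads in any CFPAC-1 sample. Proteins of the skin barrier followed, with *SPRR2A* at 139.7 ± 35 against 0.302 ± 0.147 RPKM (log2 difference 8.48) and *FLG*, filaggrin, at 47 ± 11.9 against 0.0835 ± 0.0567 RPKM (8.02). The other genes of this group were *SPON1* (log2 difference 8.18), *VGLL1*, a cofactor of TEAD transcription factors (8.0), *KISS1*, which encodes the kisspeptin precursor (7.62), and *MARCH4*, an E3 ubiquitin ligase at 23.9 ± 6.67 RPKM and without reads in CFPAC-1.

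In favour of CFPAC-1, *TM4SF4*, a tetraspanin-like membrane protein of liver and pancreas, had the largest difference. It measured 481, 634 and 469 RPKM in CFPAC-1, with at most 2 reads in any SW1990 sample (limma adjusted p = 9.06e-08). *MMP7*, matrilysin, measured 279, 428 and 715 RPKM in the CFPAC-1 samples and 0.184, 0.158 and 0 in the SW1990 samples (log2 difference -11.15, SE 0.46). Its CFPAC-1 samples spread widely and replicate 3 was the highest, yet none came near SW1990. *TFPI2*, an inhibitor of serine proteases, stood at 0.0161 ± 0.0279 against 199.6 ± 35.4 RPKM. Other genes of this group had no read in SW1990. They were *LDHB*, the B subunit of lactate dehydrogenase, at 179 ± 14.8 RPKM in CFPAC-1 (at least 1718-fold higher), *PEBP1*, the RAF kinase inhibitor protein, at 98.9 ± 15.2 RPKM (at least 883-fold), and *HS6ST2*, a heparan sulphate sulphotransferase, at 37.8 ± 2.09 RPKM (at least 1035-fold). *ALDH1A1* (at least 978-fold) and *CCBE1* (at least 1443-fold) were without reads in SW1990 too, and *CDKN2A* is described with its group.

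**Figure D2:**
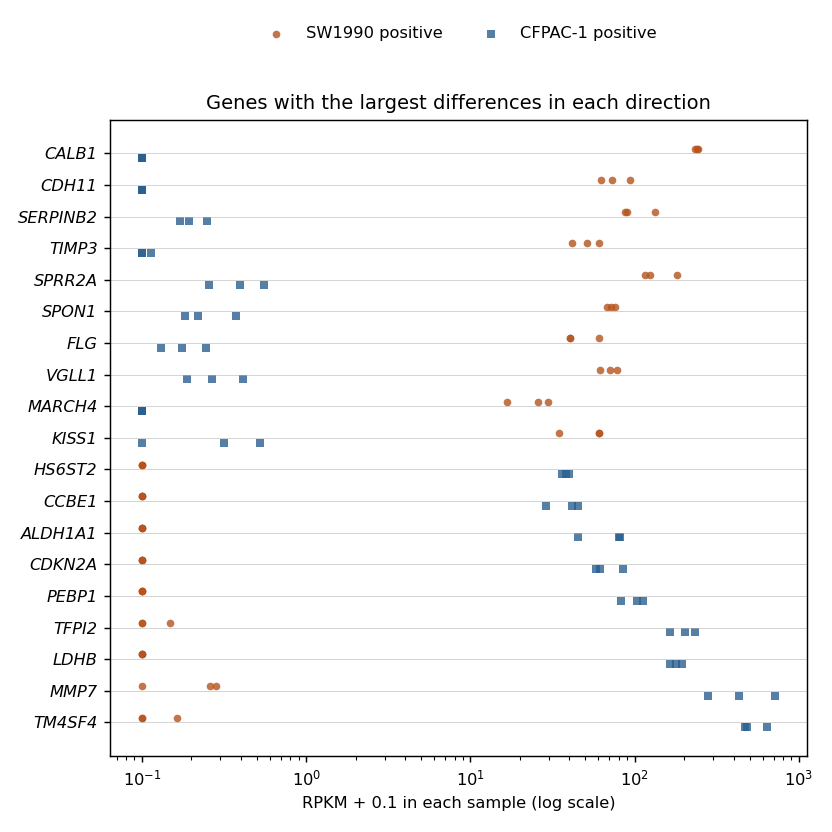
RPKM in each of the 6 GCTM-5 positive samples (x axis, log10 of RPKM + 0.1) for 19 of the genes with the largest differences in favour of either line (y axis), 1 point per sample. The SW1990 and CFPAC-1 points of every gene lie far apart, and for *MMP7* the CFPAC-1 points spread from 279 to 715 RPKM.

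The most abundant genes among those called gave smaller folds. *TGM2*, transglutaminase 2, led in SW1990 at 2712 ± 483 against 1122 ± 164 RPKM (log2 difference 1.27), and *KRT19* led in CFPAC-1 with 1046 ± 56.1 against 2596 ± 230.1 RPKM (-1.31). *LY6E* (1.27), *LGALS3BP*, *IFITM1* and *IFITM3* were the others in SW1990. *EIF1*, a translation initiation factor (-1.40), *PLAU*, urokinase (-2.65), *SCD* and *CLDN4* were the others in CFPAC-1.

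Ductal identity was checked against its markers. Of 9 tested duct markers limma called 3 as higher in CFPAC-1 and 0 as higher in SW1990 (1 at an unadjusted p under 0.05, 0 with voom), and their summed level was 4797 to 5208 RPKM over the SW1990 samples and 7094 to 8645 RPKM over those of CFPAC-1. Both lines strongly expressed keratins 7, 8 and 18, *EPCAM*, *CDH1* and *MUC1* in positive cells, and none of these was called. *SOX9*, a duct transcription factor, stood at 48.1 ± 4.71 against 117 ± 9.65 RPKM (log2 difference -1.28). *CFTR*, the chloride channel that is mutated in cystic fibrosis, had means of 0 and 0.029 RPKM and did not pass the filter, so this defining duct transporter was near 0 in both lines.

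Endocrine and acinar markers were at or near 0. None of 6 endocrine markers, including *INS* and *GCG*, passed the filter, and the 8 acinar markers summed to 0.386 to 0.466 RPKM in SW1990 and 0.237 to 0.415 RPKM in CFPAC-1. The acinar lipase *CEL*, named like *KDR* below after its value was seen, was called as higher in SW1990 at 0.341 ± 0.0175 against 0.0751 ± 0.0476 RPKM (log2 difference 1.37), a call lost without any 1 library other than CFPAC-1 replicate 3. Of 10 fibroblast markers 2 passed, summing to 3.90 to 4.88 and 1.62 to 2.40 RPKM over the list, with decorin, *DCN*, at 0 and 0 RPKM. *LUM*, a matrix proteoglycan, was the member called, as higher in SW1990 (log2 difference 1.76). Its call was lost without any 1 library other than CFPAC-1 replicate 3 (limma adjusted p up to 0.0355). The 6 immune markers summed to 16.2 to 34.7 RPKM in SW1990 and 163 to 228 RPKM in CFPAC-1. Of these 3 passed and all 3 were higher in CFPAC-1, which were *LYZ*, lysozyme (-5.49), *CD68*, a lysosomal protein (-2.73), and *CD14*, a lipopolysaccharide co-receptor (-3.05). *PTPRC*, the leukocyte antigen CD45, had means of 0.00611 and 0.0163 RPKM. Among 5 endothelial markers *CDH5* was called in SW1990 at 1.33 ± 0.255 RPKM, with at most 1 read in CFPAC-1, *KDR*, a VEGF receptor, was called in CFPAC-1 at 0.00649 ± 0.0112 against 0.637 ± 0.0261 RPKM (log2 difference -2.79), and *PECAM1* was not called.

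Foregut and pancreatic transcription factors differed in both directions and mostly in favour of CFPAC-1. Of 30 listed, 22 were tested, 13 were higher in CFPAC-1 and 4 in SW1990 (2 to 4 with 1 library left out, lowest without SW1990 replicate 1 or SW1990 replicate 3), with a median log2 difference of -1.41 against 0.06 over all genes. *SOX2*, a factor of the anterior foregut, measured 58.4, 52.2 and 46.7 RPKM in CFPAC-1 and 0.0821, 0.469 and 0.404 RPKM in SW1990 (log2 difference -7.13, limma adjusted p = 7.94e-06). *FOXA3*, a hepatic forkhead factor, was at 0.188 ± 0.0434 against 6.58 ± 1.37 RPKM (-4.53). In the other direction *GATA5* was read in SW1990 only, at 1.84 ± 0.174 RPKM (at least 25-fold higher). *BHLHA15*, the acinar factor MIST1 (log2 difference 2.62), and *NR5A2*, a nuclear receptor of acinar and ductal cells (1.32), were higher in SW1990 as well. The *BHLHA15* call was lost without any 1 library other than CFPAC-1 replicate 3 (limma adjusted p up to 0.0279). The *NR5A2* call was lost without SW1990 replicate 3 (limma adjusted p up to 0.0113).

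Called genes of the classical subtype were mostly higher in CFPAC-1, and those of the basal-like subtype were divided. Among 13 tested classical genes 7 were higher in CFPAC-1 and 1 in SW1990 (0 to 1 with 1 library left out, lowest without SW1990 replicate 3), with a median log2 difference of -2.44. *ANXA10*, a gastric annexin, stood at 0.078 ± 0.0408 against 53.5 ± 7.04 RPKM (log2 difference -8.25), *TSPAN8* at 0.264 ± 0.159 against 22.8 ± 10.2 RPKM (-5.98) and *LYZ* at 1.22 ± 0.508 against 56.6 ± 5.09 RPKM. The member higher in SW1990 was *VSIG2* (2.09), and that call was lost without SW1990 replicate 3 (limma adjusted p up to 0.0109). Of 24 tested basal-like genes 10 were higher in SW1990 and 5 in CFPAC-1, with a median of 0.47. *LY6D*, a surface protein of squamous epithelium, reached 219 ± 64.5 against 3.02 ± 0.669 RPKM (6.11), and *SPRR1B*, an envelope protein of keratinocytes, 116 ± 52.3 against 5.84 ± 1.41 RPKM (4.22). The squamous serpins went the other way, with *SERPINB3* at 15.4 ± 10.3 RPKM in CFPAC-1 (-5.31) and *SERPINB4* at 1.1 ± 0.589 RPKM and no read in SW1990. *AREG*, an EGF receptor ligand in the same list, was at 0.0525 ± 0.014 against 1.08 ± 0.226 RPKM (-2.93). The serpins, like the small proline-rich proteins, are near-identical neighbours that may share reads.

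Of 12 tested transcription factors of epithelial cells, 1 was called in each direction, beside 25.9% of all genes called in either (those higher in SW1990 1 to 2 with 1 library left out, highest without CFPAC-1 replicate 1), which were *TP63*, the squamous master regulator, at 2.95 ± 1.09 against 0.0265 ± 0.024 RPKM (log2 difference 4.55), and *ELF3* at 45.2 ± 10.4 against 111 ± 2.32 RPKM (-1.33). *GRHL2*, *ESRP1* and *KLF5*, which sustain epithelial gene expression and splicing, were not called.

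**Figure D3:**
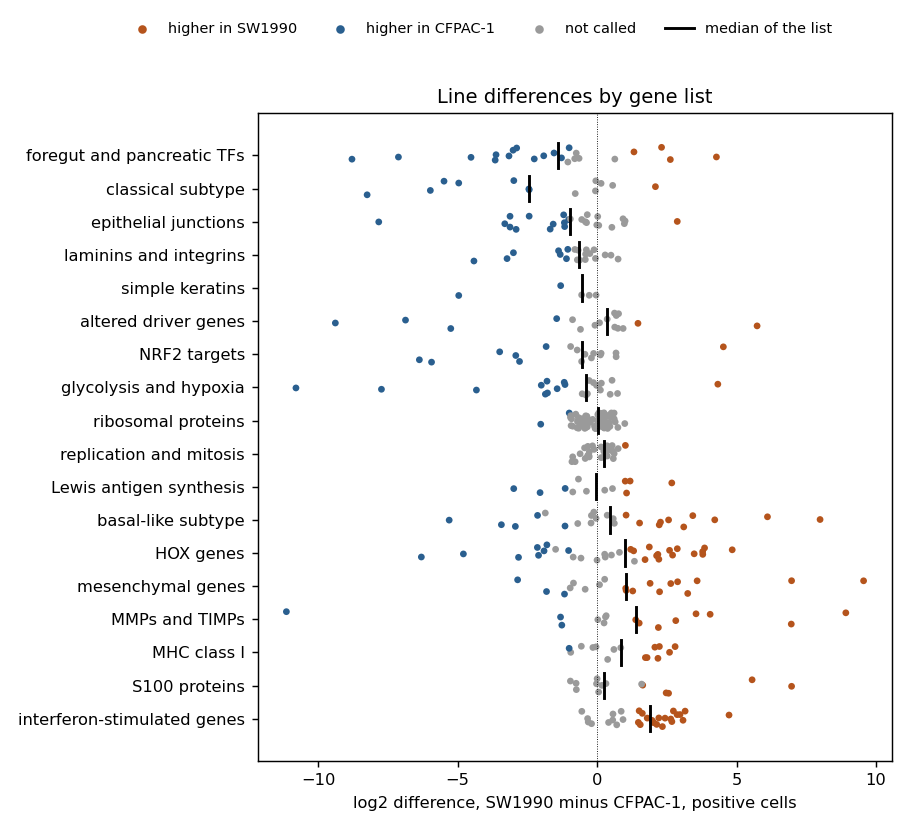
Log2 difference between the lines (x axis, SW1990 minus CFPAC-1) of each tested member of the gene lists (y axis), with 1 point per gene, a bar at the median of a list, a dotted line at 0 and colours for the calls. Interferon-stimulated genes sit to the right with a median of 1.88, and classical subtype genes and foregut factors to the left with -2.44 and -1.41.

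Most interferon-stimulated genes were higher in SW1990. These genes encode antiviral proteins and carry in their promoters a response element that interferon-activated transcription factors bind. Of 30 listed genes all were tested, 20 were higher in SW1990 (16 to 22 with 1 library left out, lowest without SW1990 replicate 3 or CFPAC-1 replicate 2) and 0 in CFPAC-1 with limma (0 with voom, 2 at an unadjusted p under 0.05). The median log2 difference was 1.88. *RSAD2*, viperin, measured 50.1, 56.8 and 45.6 RPKM in SW1990 and 1.13, 2.09 and 2.48 RPKM in CFPAC-1 (log2 difference 4.73, SE 0.26, limma adjusted p = 7.66e-06). *OASL* stood at 46.3 ± 4.68 against 5.16 ± 0.975 RPKM (3.15) and *IFI44L* at 45.9 ± 8.01 against 6.41 ± 5.16 RPKM (3.08). The samples of the lines were apart for each of these genes. *IFIT1* and *IFIT3*, named after their values were seen, stood at 313 ± 30.3 against 41.3 ± 15.4 and 321 ± 27 against 50.9 ± 13.1 RPKM. The interferon-induced membrane proteins *IFITM1* (1102 ± 262 against 231 ± 89.8 RPKM, 2.31) and *IFITM3* (1565 ± 310.4 against 549 ± 135 RPKM, 1.52), which are paralogues, were higher too. *IRF1*, *IRF9*, *STAT2* and *BST2* were among the 10 members not called.

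Promoters of the list were searched for the core of the response element, GAAANNGAAA, on both strands of the 250 bases before the start. Of 22 members with a promoter in RefSeq (GRCh38.p14), 14 (63.6%) held a match, against 839 of 27305 promoters in all (3.07%). The share was 3.44% among promoters of genes higher in SW1990, 2.03% among those higher in CFPAC-1 and 2.37% among tested genes not called. Members of the list are part of these sets. Its 13 called members, 9 with a match, are genes higher in SW1990, where 45 of 1310 promoters held a match. Sequences of 3 called members with matches are shown to place the matches beside the levels above, in lower case on the gene's own strand with each match, or its reverse complement TTTCNNTTTC, in capitals. They lie on GRCh38.p14 at chr1:78620198-78620447 (*IFI44L*), chr10:89392373-89392622 (*IFIT1*) and chr10:89327747-89327996 (*IFIT3*), all on the plus strand.
IFI44L: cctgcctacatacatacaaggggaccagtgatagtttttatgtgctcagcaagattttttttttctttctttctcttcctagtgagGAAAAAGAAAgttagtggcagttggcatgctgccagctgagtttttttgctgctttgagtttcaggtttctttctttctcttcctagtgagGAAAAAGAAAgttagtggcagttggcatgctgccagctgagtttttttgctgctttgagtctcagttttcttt
IFIT1: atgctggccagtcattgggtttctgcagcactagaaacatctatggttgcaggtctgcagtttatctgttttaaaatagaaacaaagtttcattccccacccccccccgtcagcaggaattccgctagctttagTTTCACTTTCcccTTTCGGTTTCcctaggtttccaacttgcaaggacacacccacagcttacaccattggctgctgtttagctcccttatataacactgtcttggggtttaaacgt
IFIT3: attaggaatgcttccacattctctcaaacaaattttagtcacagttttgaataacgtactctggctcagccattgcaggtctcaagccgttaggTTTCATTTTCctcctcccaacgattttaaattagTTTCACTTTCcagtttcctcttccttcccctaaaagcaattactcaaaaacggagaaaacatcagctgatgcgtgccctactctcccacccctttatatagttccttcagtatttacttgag
Each of the 3 promoters held 2 matches. Of the 13 called members with a promoter 9 held a match and 4 did not, and of the 9 not called 5 held one and 4 did not, so matches were found on both sides of the call. *RSAD2*, with the largest difference of the list, held none in this window, which says only that these letters are not in it.

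Antigen presentation by class I followed the same direction in its transporters. Of 15 tested class I genes 7 were higher in SW1990, among them *TAP1* (254 ± 21.6 against 37.2 ± 9.69 RPKM, log2 difference 2.80) and *TAP2* (2.23), which carry peptides into the endoplasmic reticulum, and *ERAP2*, which trims them (2.60). Of 10 class II genes 3 were higher in SW1990 and 2 in CFPAC-1 (1 to 2 with 1 library left out, lowest without SW1990 replicate 1, SW1990 replicate 3, CFPAC-1 replicate 2 or CFPAC-1 replicate 3). *HLA-DRB1* (88.1 ± 32 against 3.58 ± 1.59 RPKM, 4.62), *HLA-DQB1* (4.74) and *HLA-DQA1* (no read in CFPAC-1, at least 32.6-fold) stood on the SW1990 side, and *HLA-DMB* (-1.98) and *HLA-DPB1* (-1.76) on the CFPAC-1 side. The *HLA-DPB1* call was lost without SW1990 replicate 1, SW1990 replicate 3, CFPAC-1 replicate 2 or CFPAC-1 replicate 3 (limma adjusted p up to 0.0152). HLA genes vary between lines and share reads with each other, so these levels also depend on how reads were assigned.

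Of the 4 proteins known from the antigen complex, 3 were higher in SW1990 by transcript (1 to 3 with 1 library left out, lowest without SW1990 replicate 2, SW1990 replicate 3, CFPAC-1 replicate 1 or CFPAC-1 replicate 2). *LGALS3BP*, a secreted galectin-binding glycoprotein, measured 1009, 1264 and 1138 RPKM in SW1990 and 437, 465 and 583 RPKM in CFPAC-1 (log2 difference 1.21, SE 0.15, limma adjusted p = 0.000409). *C3*, complement component 3, stood at 34.8 ± 9.14 against 13.1 ± 4.37 RPKM (1.43, limma adjusted p = 0.0039). *HPX*, the haem-binding serum protein hemopexin, was low in both at 0.242 ± 0.13 and 0.00785 ± 0.0136 RPKM, with at most 11 and 1 reads in a sample (limma adjusted p = 0.00976). *FCGBP*, a mucin-like protein that binds IgG, was at 0.148 ± 0.112 and 0.209 ± 0.132 RPKM and was not called (limma adjusted p = 0.559). Thus the transcript of *LGALS3BP* was abundant in both lines and those of *HPX* and *FCGBP* were scarce in both. In the paper's mass spectrometry, FCGBP protein was found in the complex of CFPAC-1 and not in that of an SW1990 subclone. HPX was found in every CFPAC-1 analysis and in a minority of those of the subclone, and LGALS3BP the other way round. C3 was named for the subclone. Protein levels were not measured here. The *C3* call was lost without SW1990 replicate 2, SW1990 replicate 3, CFPAC-1 replicate 1 or CFPAC-1 replicate 2 (limma adjusted p up to 0.0243). The *HPX* call was lost without any 1 library other than SW1990 replicate 1 (limma adjusted p up to 0.0269).

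Enzymes that build Lewis sugars were divided. Of 17 listed, 12 were tested, 4 were higher in SW1990 (2 to 4 with 1 library left out, lowest without SW1990 replicate 2, SW1990 replicate 3 or CFPAC-1 replicate 1) and 3 in CFPAC-1. *FUT3*, the Lewis fucosyltransferase that completes sialyl Lewis A, measured 19.8, 35.5 and 32.4 RPKM in SW1990 and 4.93, 5.27 and 3.18 RPKM in CFPAC-1 (log2 difference 2.68, SE 0.27, limma adjusted p = 0.000123). *FUT1* (1.18) and *FUT2* (1.05), which make the H antigen, and the sialyltransferase *ST3GAL4* (1.01) were higher in SW1990 by a little over 2-fold. Another 3 enzymes were higher in CFPAC-1. *B3GALT5*, the galactosyltransferase that makes the type 1 chain, stood at 25.4 ± 2.03 RPKM in CFPAC-1 against 6.05 ± 0.269 in SW1990 (-2.05), with *B3GNT5* (-1.15) and *ST3GAL6* (-2.99). *B3GNT3* (-0.67), *B4GALT1* (0.27), *FUT4* (-0.88), *FUT6* (0.55) and *ST3GAL3* (-0.39) were tested and not called. *B3GALT1*, *B3GALT2*, *FUT5*, *FUT7* and *FUT9* were under 0.1 RPKM in both lines and were not tested. The *FUT2* call was lost without any 1 library other than SW1990 replicate 1 (limma adjusted p up to 0.026). The *ST3GAL4* call was lost without SW1990 replicate 2, SW1990 replicate 3 or CFPAC-1 replicate 1 (log2 difference 0.93). *FUT4* was called as higher in CFPAC-1 without SW1990 replicate 1 (limma adjusted p down to 0.00271). *FUT3*, *FUT5* and *FUT6* are close paralogues that may share reads.

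Mucins, the large glycoproteins that can carry these sugars, differed by member. In the paper's immunoblots, the GCTM-5 complex held none of MUC1, MUC2, MUC5A and MUC16, although these were detected in culture supernatants. Of 8 tested, 3 were higher in SW1990 and 1 in CFPAC-1, and *MUC1* was not called. *MUC4*, a membrane mucin of pancreatic cancer, stood at 1.72 ± 0.603 against 20.9 ± 5.59 RPKM in favour of CFPAC-1 (log2 difference -3.54). The gastric mucin *MUC6* (3.11 ± 2.34 against 0.0818 ± 0.0615 RPKM, 3.93), the intestinal mucin *MUC2* (3.72) and *MUC16*, which carries CA 125 (2.26), were higher in SW1990. The *MUC16* call was lost without any 1 library other than CFPAC-1 replicate 2 (limma adjusted p up to 0.0263). *MUC20* had the largest relative spread of SW1990 among genes at a mean of at least 10 RPKM there, 8.36, 41.1 and 24.1 RPKM against 8.15, 13.5 and 8.71, and was not called with all 6 samples (log2 difference 1.03); it was called without SW1990 replicate 1 (limma adjusted p down to 0.00649).

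Of 22 tested surface antigens of epithelium and of pancreatic cancer, 8 were higher in SW1990 and 3 in CFPAC-1. With 1 library left out, 5 to 7 were higher in SW1990, lowest without SW1990 replicate 3. The median of the list was -0.38, toward CFPAC-1, against 0.06 over all genes. All CFPAC-1 samples lay on top for 9 members (30.3% of all genes) and all SW1990 samples for 8 (34.1%). *PSCA*, the prostate stem cell antigen, measured 95, 404 and 221 RPKM in SW1990 and 19.1, 29 and 23.8 RPKM in CFPAC-1 (log2 difference 3.10), with a wide spread in SW1990 and no overlap. The uroplakins were split between the lines, with *UPK2* at 50.2 ± 3.66 against 6.26 ± 2.31 RPKM (3.06) and *UPK1B* at 0.0469 ± 0.0435 against 4.73 ± 1.83 RPKM (-5.0). *CLDN18*, a tight junction protein of gastric epithelium, was low at 0.0248 ± 0.0154 and 1.14 ± 0.666 RPKM (-3.13).

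Most called factors of epithelial-mesenchymal transition were higher in CFPAC-1, and most called mesenchymal genes in SW1990. Of 9 factors 6 were tested, 4 were higher in CFPAC-1 and 1 in SW1990 (0 to 1 with 1 library left out, lowest without any 1 library other than SW1990 replicate 3). *FOXC2* was at 28.5 ± 8.13 RPKM in CFPAC-1 without a read in SW1990 (at least 287-fold higher). *TWIST2* (at least 11.7-fold) and *TCF4* (at least 36.3-fold) were at 1.65 ± 1.04 and 0.577 ± 0.106 RPKM in CFPAC-1 and without reads in SW1990, and *SNAI1* stood at 0.631 ± 0.256 against 2.64 ± 0.582 RPKM (log2 difference -1.94). *SNAI2*, or Slug, was higher in SW1990 at 22.1 ± 8.79 against 9.54 ± 1.44 RPKM (1.14), and that call was lost without any 1 library other than SW1990 replicate 3 (limma adjusted p up to 0.0345). *ZEB1* did not differ beyond its error at 2.63 ± 0.307 and 2.51 ± 0.0433 RPKM (log2 difference 0.06, SE 0.17), and *TWIST1*, *PRRX1* and *ZEB2* did not pass the filter. Of 19 mesenchymal genes 11 were higher in SW1990 and 3 in CFPAC-1, with a median of 1.04. Beside *CDH11*, *S100A4* stood at 692 ± 46.9 against 5.51 ± 1.37 RPKM (6.97) and *SPARC*, a secreted matrix protein, at 1.46 ± 0.944 against 0.0071 ± 0.0123 RPKM. N-cadherin, *CDH2*, was higher in CFPAC-1 (-2.85), as were tropomyosin 2, *TPM2* (-1.82), and the receptor kinase *AXL* (86.6 ± 17.3 against 194 ± 19.6 RPKM, -1.17).

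Called cell junction genes were mostly higher in CFPAC-1, with 12 of 25 tested there, 1 in SW1990 (1 to 2 with 1 library left out, highest without SW1990 replicate 2, CFPAC-1 replicate 1 or CFPAC-1 replicate 3) and a median of -0.96. *CLDN2*, a claudin that forms cation pores, measured 0.0628 ± 0.109 against 32.5 ± 3.48 RPKM (log2 difference -7.83), *CLDN3* 9.59 ± 2.77 against 94.7 ± 19.2 RPKM (-3.31) and the desmosomal cadherin *DSG3* 0.102 ± 0.099 against 1.56 ± 0.342 RPKM (-3.13). *CLDN1* was the member higher in SW1990 (82.8 ± 16.1 against 11.4 ± 3.52 RPKM, 2.87). The abundant *CLDN4* was at 419 ± 99.9 and 843 ± 138 RPKM (-1.02), and its call was lost without SW1990 replicate 1, SW1990 replicate 3, CFPAC-1 replicate 2 or CFPAC-1 replicate 3 (limma adjusted p up to 0.0221). Of 5 simple keratins 2 were higher in CFPAC-1, *KRT19* and *KRT20*, the latter at 3.16 ± 1.22 RPKM with no read in SW1990 (at least 34.2-fold). Of 12 stratified keratins 4 were higher in SW1990 and 3 in CFPAC-1. The basal keratin *KRT5* (2.94) and the keratins of activated keratinocytes *KRT6A* (60.8 ± 12.2 against 5.54 ± 1.04 RPKM, 3.43) and *KRT6B* (3.93) stood with SW1990. *KRT15* (-2.14), *KRT16* (-2.80) and the hair keratin *KRT86* (2.27 ± 0.714 against 52.7 ± 0.748 RPKM, -4.52) stood with CFPAC-1. Keratin paralogues may share reads.

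Proteases and matrix components also separated the lines. Of 15 tested matrix metalloproteinases and their inhibitors 8 were higher in SW1990 (5 to 6 with 1 library left out, lowest without SW1990 replicate 2, SW1990 replicate 3 or CFPAC-1 replicate 2) and 3 in CFPAC-1. *MMP2*, gelatinase A, was at 21.3 ± 2.18 against 0.0752 ± 0.0485 RPKM (log2 difference 6.96) and *MMP28* at 37.7 ± 14.6 against 2.18 ± 0.946 RPKM (4.05), whereas *MMP7*, *MMP24* (-1.31) and *TIMP1* (-1.27) were higher in CFPAC-1. The *TIMP1* call was lost without any 1 library other than CFPAC-1 replicate 1 (limma adjusted p up to 0.0236). Of 21 collagens 9 were higher in SW1990 (5 to 9 with 1 library left out, lowest without SW1990 replicate 3) and 4 in CFPAC-1. The basement membrane pair *COL4A1* (0.632 ± 0.254 against 14.7 ± 1.05 RPKM, -4.39) and *COL4A2* (0.0813 ± 0.038 against 25.4 ± 0.829 RPKM, -7.16) was higher in CFPAC-1 together with *COL18A1* (-1.28). *COL4A4* (3.59), *COL9A3* (2.50) and *COL9A2* (2.19) were higher in SW1990, and the *COL9A2* call was lost without any 1 library other than SW1990 replicate 1 (limma adjusted p up to 0.0348). Laminins and integrins gave 7 of 20 higher in CFPAC-1 and 0 in SW1990 with limma (0 with voom, 2 at an unadjusted p under 0.05), led by the integrin subunits *ITGB3* (-4.42), *ITGA1* (-3.23) and *ITGB8* (2.41 ± 0.524 against 19.8 ± 2.03 RPKM, -3.0).

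Kallikreins, a cluster of secreted serine proteases, gave 2 of 10 in each direction, beside 13.2% (SW1990) and 12.7% (CFPAC-1) of all genes. With 1 library left out, those higher in SW1990 were 1 to 2, lowest without any 1 library other than CFPAC-1 replicate 1. Those higher in CFPAC-1 were then 0 to 1, lowest without SW1990 replicate 3, CFPAC-1 replicate 2 or CFPAC-1 replicate 3. *KLK10* was abundant at 305 ± 27 against 138 ± 31.7 RPKM (log2 difference 1.17), and *KLK8* (-2.52) and *KLK11* (-1.07) were higher in CFPAC-1. The *KLK8* call was lost without SW1990 replicate 3, CFPAC-1 replicate 2 or CFPAC-1 replicate 3 (limma adjusted p up to 0.0157). The *KLK11* call was lost without any 1 of the 6 libraries (limma adjusted p up to 0.0391). The calcium-binding S100 proteins gave 5 of 14 higher in SW1990 (3 to 6 with 1 library left out, lowest without SW1990 replicate 2) and 0 in CFPAC-1 with limma (0 with voom, 3 at an unadjusted p under 0.05), with *S100A4*, *S100A9* (78.8 ± 30.6 against 1.52 ± 0.49 RPKM, 5.56) and *S100A2* (2.56) in front.

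Among 17 tumour suppressors and oncogenes of pancreatic cancer, 2 were higher in SW1990 and 4 in CFPAC-1, beside 13.2% and 12.7% of all genes. *CDKN2A*, which encodes the cell cycle inhibitors p16 and p14ARF, measured 58, 61.7 and 84.3 RPKM in CFPAC-1 and 0 in every SW1990 sample (at least 847-fold higher, limma adjusted p = 1.14e-07). Its neighbour *CDKN2B* was at 11.7 ± 1.49 RPKM in CFPAC-1 and also without a read in SW1990 (at least 279-fold). *SMAD4*, the common mediator of TGF-beta signalling, showed the opposite pattern, with 5.22, 5.28 and 5.2 RPKM in SW1990 and 0 in every CFPAC-1 sample (at least 239-fold higher, limma adjusted p = 1.46e-06). *RNF43*, a ubiquitin ligase that removes Wnt receptors, was higher in CFPAC-1 at 0.175 ± 0.103 against 9.79 ± 0.797 RPKM (log2 difference -5.25), as was *MTAP*, the neighbour of *CDKN2A* (15.1 ± 0.976 against 42.1 ± 9.55 RPKM, -1.45). *GNAS* (0.36), *MYC* (-0.88), *ARID1A* (0.69), *KDM6A* (-0.08), *MAP2K4* (0.77), *STK11* (0.63), *TGFBR1* (0.62), *TGFBR2* (-0.60), *PALB2* (0.74) and *BRCA2* (0.93) were not called with all samples. *BRCA2* was called as higher in SW1990 without CFPAC-1 replicate 1 (limma adjusted p down to 0.00452). These are transcript levels, and no variant was examined.

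Neighbouring genes that were silent together in 1 line were searched for as 2 or more protein-coding genes at a mean of at least 1 RPKM in the other line, with at most 3 reads in every sample. There were 11 such runs in SW1990 and 6 in CFPAC-1, or 8 and 5 at a limit of 1 read. In SW1990 the run of *CDKN2A* and *CDKN2B* lies at chr9:21967751-22009304 of GRCh37. In CFPAC-1 the run of *ELAC1*, a tRNA-processing enzyme at 2.33 ± 0.184 RPKM in SW1990, and *SMAD4* lies at chr18:48494361-48611415. Other runs silent in SW1990 held *FGB* (11.5 ± 7.48 RPKM in CFPAC-1) and *FGA* (1.86 ± 0.989), which encode fibrinogen chains, at chr4:155484163-155511894, and *SALL1* (7.0 ± 0.257) and *TOX3* (9.91 ± 0.42), both transcription factors, at chr16:51169893-52581714. Further runs silent in SW1990 were *NPFFR2* with *ADAMTS3* on chromosome 4, the histone genes *HIST1H2BH* and *HIST1H3G* on chromosome 6, *FXYD2* with its readthrough on chromosome 11, *ZNF43* with *ZNF257* and *CCDC8* with *PNMAL1* on chromosome 19, the cystatins *CST4* and *CST1* on chromosome 20, and a cancer-testis cluster on chromosome X. The runs silent in CFPAC-1 were completed by *CDH11* with *CDH5* at chr16:64977656-66438687, *HOXC9* with *HOXC8* on chromosome 12, *ZNF470* (2.4 ± 0.133 RPKM in SW1990) with *ZNF71* (9.07 ± 0.732) on chromosome 19, *C11orf21* with *TSPAN32* on chromosome 11 and *SPRR2E* with *SPRR2F* on chromosome 1. Of these calls, that of *TSPAN32* was lost without SW1990 replicate 3 (limma adjusted p up to 0.0108), and that of *SPRR2F* was lost without SW1990 replicate 3 (limma adjusted p up to 0.0101).

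The difference between lines also varied by chromosome arm, for 14934 tested genes with coordinates. Genes of 18p had a median log2 difference of 1.22 and 29 of 45 were higher in SW1990 (64.4%, against 13.2% of all genes). Genes of 18q, which holds *SMAD4*, had a median of -0.81, and 37.6% of 149 were higher in CFPAC-1 against 12.7% of all genes. The short and long arm of chromosome 18 thus stood at opposite ends. Positive medians of 0.84, 0.80 and 0.80 were found for 12p, 8p and 13q, and negative ones of -0.66, -0.64 and -0.50 for 4q, 4p and 10q. For 9p, which holds *CDKN2A*, the median was -0.07. The spread of such a median between replicate samples was at most 0.13 for these arms. Each of these arms but 9p had a median of the same sign in negative cells. DNA copy number was not measured.

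**Figure D4:**
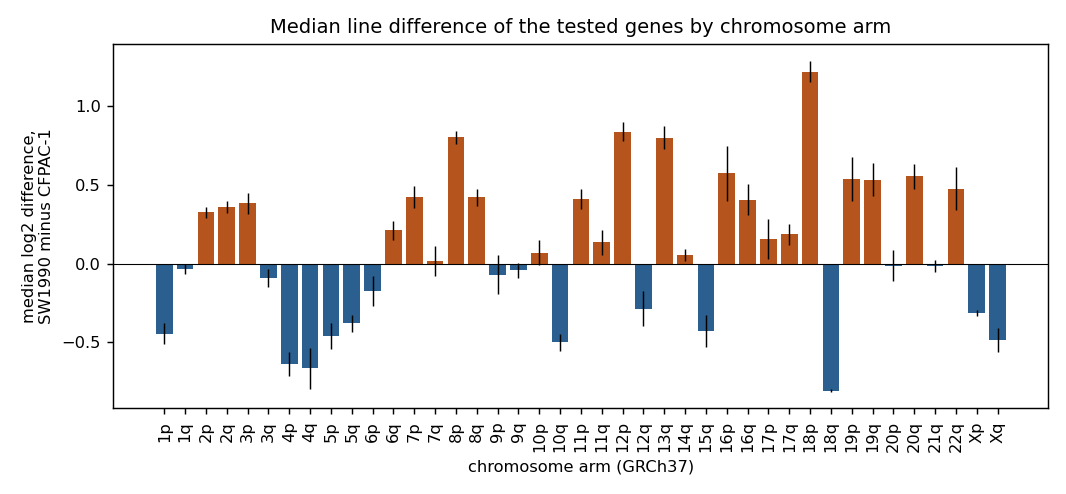
Median log2 difference between the lines (y axis, SW1990 minus CFPAC-1) of the tested genes of each chromosome arm (x axis), in GCTM-5 positive cells, with error bars for the SD of the median over the 3 replicates of the more variable line. 18p lies highest at 1.22 and 18q lowest at -0.81.

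HOX genes, which record position along the body axis, differed in 23 of 32 tested members, 15 higher in SW1990 and 8 in CFPAC-1. The HOXC cluster was read in SW1990, as in *HOXC11* (3.16 ± 0.764 against 0.0125 ± 0.0217 RPKM), *HOXC5* (1.44 ± 0.274 RPKM), *HOXC9* and *HOXC8*, and so was *HOXB13* (1.35 ± 0.162 RPKM, no read in CFPAC-1). In CFPAC-1, *HOXB6* was higher at 8.51 ± 1.66 against 60.1 ± 4.46 RPKM (log2 difference -2.82), as was *HOXA10* at 0.0442 ± 0.0491 against 10.9 ± 0.677 RPKM (-6.31) and *HOXD4* at 2.68 ± 0.0959 RPKM with no read in SW1990.

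Of 24 cancer-testis antigens, genes normally read in germ cells, 3 passed the filter and were higher in CFPAC-1 without a read in SW1990. They passed through their CFPAC-1 levels alone, so the filter fixed the direction, and their number is no result about the list. *MAGEA3* measured 25.6, 22.3 and 2.33 RPKM in CFPAC-1, with replicate 3 far below the others. *MAGEA6* was at 4.35 ± 1.13 RPKM and *MAGEA12* at 2.28 ± 1.14 RPKM, and their neighbour *CSAG1* was at 0.0449 ± 0.0777 against 1.36 ± 0.794 RPKM. The *CSAG1* call was lost without SW1990 replicate 1, SW1990 replicate 3, CFPAC-1 replicate 1 or CFPAC-1 replicate 2 (limma adjusted p up to 0.0138). MAGEA genes are near-identical and may share reads.

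Progenitor and ductal transport genes were led by CFPAC-1. Of 10 tested progenitor markers 4 were higher in CFPAC-1 and 1 in SW1990. *PROM1*, or CD133, was at 0.060 ± 0.0401 against 27 ± 4.45 RPKM (log2 difference -7.42), *CD24* at 22.9 ± 9.63 against 491 ± 30.6 RPKM (-4.49) and *ALDH1A1*, a retinal dehydrogenase, at 80.5, 81.1 and 45.2 RPKM in CFPAC-1 and 0 in SW1990. The tuft cell kinase *DCLK1* was higher in SW1990 at 2.44 ± 1.09 against 0.00818 ± 0.00838 RPKM (4.44). Of 16 tested transport genes 6 were higher in CFPAC-1 and 2 in SW1990 (2 to 4 with 1 library left out, highest without SW1990 replicate 1). *SLC4A4*, the sodium bicarbonate cotransporter, stood at 0.0472 ± 0.0359 against 24.5 ± 7.19 RPKM (-7.36), and *AQP5*, a water channel, at 1.74 ± 0.692 against 214 ± 31 RPKM (-6.91). The carbonic anhydrases were divided between *CA12* in CFPAC-1 (0.0453 ± 0.0282 against 2.21 ± 0.271 RPKM, -4.0) and *CA2* in SW1990 (11.8 ± 0.599 against 2.76 ± 0.231 RPKM, 2.06). The chloride channel *ANO1* was higher in SW1990 at 121 ± 6.99 against 35.4 ± 16.7 RPKM (1.87).

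Metabolic genes gave more calls in CFPAC-1. Of 23 genes of glycolysis and hypoxia 10 were higher in CFPAC-1 and 1 in SW1990. Beside *LDHB*, *BNIP3*, a mitophagy receptor, was at 0.179 ± 0.0634 against 64 ± 29.4 RPKM (log2 difference -7.74), *CA9* at 1.94 ± 0.413 RPKM with no read in SW1990, and the member higher in SW1990 was the glucose transporter *SLC2A3* at 11.2 ± 2.8 against 0.496 ± 0.254 RPKM (4.33). Of 17 targets of NRF2, the factor that answers oxidative stress, 6 were higher in CFPAC-1 and 1 in SW1990. *GPX2*, a glutathione peroxidase, stood at 0.872 ± 0.21 against 81.1 ± 19.7 RPKM (-6.38), with the aldo-keto reductases *AKR1B10* (-5.94) and *AKR1C3* (-3.50). *ALDH3A1* was higher in SW1990 at 5.48, 24.8 and 13.4 RPKM against 0.254, 0.142 and 1.69, a wide spread, and its call was lost without SW1990 replicate 2, SW1990 replicate 3, CFPAC-1 replicate 1 or CFPAC-1 replicate 2 (limma adjusted p up to 0.0136).

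Of 22 genes of cholesterol and fatty acid synthesis 4 were higher in CFPAC-1 and 1 in SW1990, beside 12.7% and 13.2% of all genes. The CFPAC-1 count was 1 to 5 with 1 library left out, lowest without SW1990 replicate 1, SW1990 replicate 3 or CFPAC-1 replicate 1. *HMGCS1* stood at 57.1 ± 16 against 158 ± 16.6 RPKM (log2 difference -1.50), the desaturase *SCD* at 826, 1396 and 643 RPKM in CFPAC-1 and 245, 409.8 and 394 RPKM in SW1990 (-1.41), and *INSIG1* at 89.6 ± 29.2 against 231 ± 67.7 RPKM (-1.38). *ACACA*, which commits acetyl-CoA to fatty acids, was higher in SW1990 (1.32). The *SCD* call was lost without any 1 library other than CFPAC-1 replicate 3 (limma adjusted p up to 0.0267), and the *INSIG1* call was lost without SW1990 replicate 1, SW1990 replicate 3, CFPAC-1 replicate 1 or CFPAC-1 replicate 2 (limma adjusted p up to 0.0317). Metallothioneins gave 2 of 7 higher in CFPAC-1, *MT1M* (2.29 ± 1.51 RPKM, no read in SW1990) and *MT1A* (-1.21), and the latter call was lost without any 1 of the 6 libraries (limma adjusted p up to 0.0323).

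Few genes of proliferation were called in positive cells. Of 31 tested, 1 was called, beside 25.9% of all genes, the mitotic kinase *PLK1* at 81.6 ± 6.74 against 40.5 ± 5.28 RPKM in favour of SW1990 (log2 difference 1.01), and that call was lost without SW1990 replicate 1, CFPAC-1 replicate 2 or CFPAC-1 replicate 3 (log2 difference 0.94). Toward CFPAC-1 the count was 0 with limma and with voom on recovered reads, and 9 at an unadjusted p under 0.05. Of 76 ribosomal protein genes 2 were called, beside 25.9% of all genes, both higher in CFPAC-1. They were *RPL39* (-2.02) and *RPL9* (-1.0), and the count was 1 to 4 with 1 library left out, lowest without SW1990 replicate 2. The median over the list was 0.02, and 0 were higher in SW1990 with limma (1 with voom, 12 at an unadjusted p under 0.05). The *RPL9* call was lost without SW1990 replicate 2 or CFPAC-1 replicate 1 (log2 difference -0.85).

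Secreted signals were divided. Of 23 cytokines and chemokines 6 were higher in SW1990 and 4 in CFPAC-1, beside 13.2% and 12.7% of all genes. *IL1B*, interleukin 1 beta, measured 51.1, 117 and 79.8 RPKM in SW1990 and 0.204, 0.498 and 0.67 RPKM in CFPAC-1 (log2 difference 7.24, limma adjusted p = 7.17e-06). *CCL20* (37.1 ± 8.56 RPKM) and *CCL5* (19.99 ± 2.18 RPKM) had at most 2 reads in a CFPAC-1 sample. The neutrophil chemokines *IL8* (17.8 ± 7.44 against 77.5 ± 15 RPKM, -2.18) and *CXCL6* (-3.63) and the membrane-bound *CX3CL1* (-3.26) were higher in CFPAC-1.

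Growth factors of the EGF family gave 4 of 10 higher in CFPAC-1 (2 to 4 with 1 library left out, lowest without SW1990 replicate 1, SW1990 replicate 3, CFPAC-1 replicate 1 or CFPAC-1 replicate 2) and 1 in SW1990. *EREG*, epiregulin, was at 61.7 ± 4.5 against 201 ± 34.1 RPKM (log2 difference -1.69), *BTC*, betacellulin, at 2.36 ± 0.624 against 4.77 ± 0.228 RPKM (-1.01) and *NRG1*, neuregulin 1, the member higher in SW1990, at 3.05 ± 0.799 against 0.716 ± 0.24 RPKM (1.95). The *BTC* call was lost without any 1 library other than SW1990 replicate 2 (limma adjusted p up to 0.0225). Of 31 genes of the IGF and TGF-beta pathways 11 were higher in CFPAC-1 and 5 in SW1990. The ligand *TGFB2* stood at 12.2 ± 0.609 against 133 ± 12.3 RPKM (-3.43), *IGFBP5* at 0.108 ± 0.0536 against 11.2 ± 6.26 RPKM (-5.65) and the RNA-binding protein *IGF2BP1* at 0.33 ± 0.0242 against 10.6 ± 2.2 RPKM (-4.62). On the SW1990 side, with *SMAD4*, were *IGFBP2* (1.55 ± 0.751 against 0.0497 ± 0.0861 RPKM, 3.52) and *ID3*, an inhibitor of basic helix-loop-helix factors (5.13 ± 1.73 against 1.03 ± 0.16 RPKM, 2.16).

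The line difference was then set beside that of negative cells, for the same 16016 genes. In negative cells 3346 genes (20.9%) were higher in SW1990 and 2335 (14.6%) in CFPAC-1, 35.5% in all, and the split depended on scaling, since it was 2725 and 2858 with each sample centred on its median. Of the 2119 genes higher in SW1990 among positive cells, 1656 (78.2%) had the same call in negative cells, 441 had none and 22 had the opposite one. Of the 2027 higher in CFPAC-1, 1432 (70.6%) had the same call, 572 none and 23 the opposite one. Pearson's r of the line difference across genes, which are not independent, was 0.815. Whether a line difference itself changed with the antigen was tested as an interaction (limma adjusted p under 0.05 and over 2-fold), with 876 genes (5.47%) more in favour of SW1990 in positive than in negative cells and 1365 (8.52%) more in favour of CFPAC-1. That split was 1086 and 1068 with median centring. Of the genes with a called interaction, 921 were called in negative cells and not in positive ones. Centring moved the median of all genes from 0.18 to -0.0037 in negative cells and that of the interaction from -0.14 to 0.0026, a shift that applies to every interaction below.

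Many genes of epithelial groups shifted in favour of SW1990 in positive cells. The interaction was called upward in 9 of 12 epithelial transcription factors, 14 of 25 junction genes, 7 of 10 kallikreins, 6 of 8 mucins, 14 of 24 basal-like genes and 6 of 12 Lewis enzymes, against 5.47% of all genes, and downward in 3 junction genes and 0 members of the other lists named here. With median centring these counts were 10, 16, 7, 6, 16 and 6. In negative cells 8 of 12 epithelial factors were higher in CFPAC-1, as against 1 in positive cells. *FOXJ1*, the regulator of motile cilia, was at 4.06, 19.3 and 17 RPKM in positive SW1990 and 0.753, 1.74 and 1.44 RPKM in positive CFPAC-1, and at 0.958, 0.537 and 1.5 RPKM in negative SW1990 and 8.76, 15.6 and 14.3 RPKM in negative CFPAC-1 (interaction 6.67, SE 0.76, limma adjusted p = 9.44e-05). The direction of its line difference thus turned with the antigen. *FOXJ1* was called in positive cells (log2 difference 3.05) and this call was lost without any 1 library other than SW1990 replicate 1 (limma adjusted p up to 0.0191). *GABRP*, a GABA receptor subunit of glandular epithelium (interaction 6.56), *WFDC2*, a secreted antiprotease (5.03), and *KLK8* (4.90) followed. *GABRP* was still higher in CFPAC-1 in positive cells (-4.28, and -10.84 in negative cells), as was *KLK8* (-2.52 and -7.42). *WFDC2* was not called in positive cells (0.71) and was higher in CFPAC-1 in negative cells (-4.32). *HSD11B1*, which activates cortisol, was at 9.32 ± 2.03 against 1.53 ± 0.736 RPKM in positive cells (interaction 4.85).

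Many genes of stress, cell cycle and inflammatory groups shifted in favour of CFPAC-1 in positive cells. The interaction was called downward in 13 of 31 proliferation genes, 10 of 17 NRF2 targets, 8 of 21 collagens, 8 of 31 IGF and TGF-beta genes and 9 of 23 cytokines and chemokines, against 8.52% of all genes, and upward in 2 collagens and 2 cytokines of these. With median centring these were 12, 10, 7, 8 and 8. In negative cells 17 of 31 proliferation genes were higher in SW1990, as against 1 in positive cells. *SDC2*, the heparan sulphate proteoglycan syndecan 2, was at 1.49, 0.372 and 1.1 RPKM in positive SW1990 and 11.4, 10.6 and 3.08 RPKM in positive CFPAC-1, and at 3.62, 4.23 and 3.49 RPKM in negative SW1990 and 0.206, 0.262 and 0.173 RPKM in negative CFPAC-1 (interaction -6.55, SE 0.70, limma adjusted p = 5.76e-05). Its line difference was -2.92 in positive and 3.63 in negative cells, and the positive call was lost without SW1990 replicate 2, SW1990 replicate 3, CFPAC-1 replicate 1 or CFPAC-1 replicate 2 (limma adjusted p up to 0.0252). *MAGEA3* (interaction -5.98), *CXCL6* (-5.50), *APOA1*, the main protein of high-density lipoprotein (-5.23), and *ID3* (-5.22) followed. *ID3* was still higher in SW1990 in positive cells (2.16, and 7.38 in negative cells). *APOA1* was not called in positive cells (1.14), though it was called without SW1990 replicate 1 (limma adjusted p down to 0.00819). The line difference in negative cells had the same call for *CDKN2A* (-8.97), *CDKN2B* (-7.26) and *SMAD4* (5.95), and 22 of 30 interferon genes were higher in SW1990 there.

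**Figure D5:**
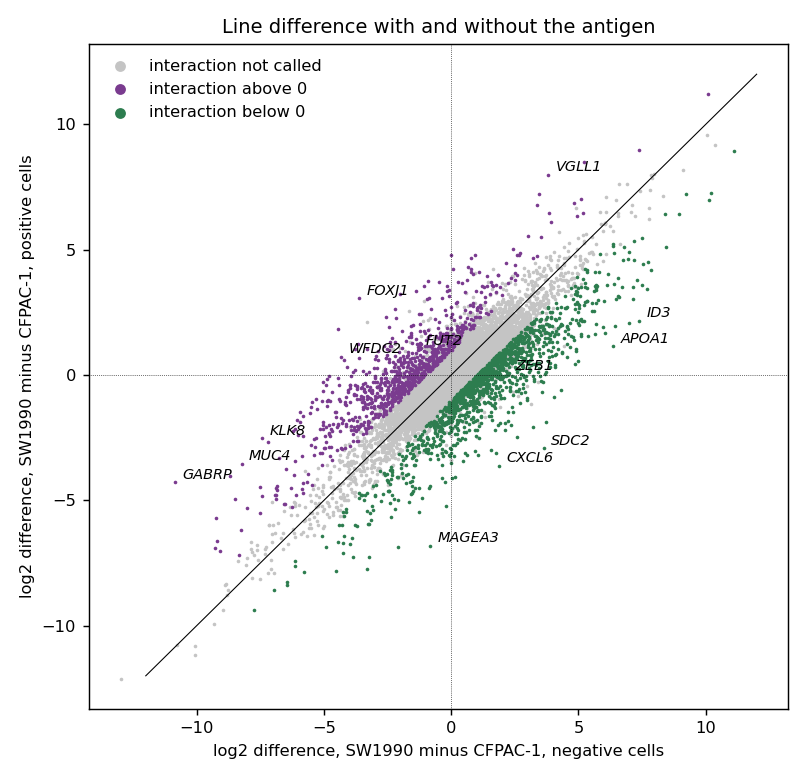
Log2 difference between the lines (SW1990 minus CFPAC-1) in GCTM-5 negative cells (x axis) and positive cells (y axis), 1 point per gene, with the diagonal drawn and colours for genes whose interaction was called. Most genes lie along the diagonal (r = 0.815 across genes), and genes with a called interaction (876 and 1365 over all genes tested) depart above and below it. Some genes not reported here were not drawn.

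Among genes at a mean of at least 10 RPKM in a line, the largest relative spreads (SD over mean) were those of *MUC20*, *ALDH3A1* and *PSCA* in SW1990, where replicate 1 was the lowest of each. In CFPAC-1 they were those of *HES4*, *TMEM238* and *KRT23*, with replicate 3 the highest of each. *HES4*, a Notch target, measured 8.05, 9.37 and 86.4 RPKM in CFPAC-1 and 10.5, 13 and 11 RPKM in SW1990 and was not called. Its log2 difference was -0.71 with all samples and 0.39 without CFPAC-1 replicate 3. *TMEM238* measured 9.87, 10.1 and 65.3 RPKM in CFPAC-1 and 23.2, 31.8 and 28.6 RPKM in SW1990, and was called as higher in SW1990 without CFPAC-1 replicate 3 (limma adjusted p down to 0.000584). *KRT23* was higher in CFPAC-1 in every sample (13.9, 18.3 and 74.9 RPKM, and 0.192, 0.686 and 0.473 RPKM in SW1990, log2 difference -5.72).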

How the data were processed

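RNA-seq of sorted cells was analysed from the table of RPKM that the authors deposited, with 12 samples in 4 groups by line and antigen, of which the 6 positive samples are compared. The authors aligned reads to hg19 (GRCh37) and computed RPKM with QuasR, and the submitters' processing notes name bcl2fastq. The annotation, strand setting and treatment of multimapping reads are not given in the sources used here. The kit is SureSelect strand-specific by the labels and TruSeq by the methods. Only sorted cells were sequenced, with 3 sorts per group.

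Genes at a mean of at least 0.1 RPKM over the 6 samples (16016 of 23346) were fitted as log2(RPKM + 0.1) with limma 3.58.1 in R 4.3.3 (eBayes with a trend, 2-sided) and called at over 2-fold and an adjusted p under 0.01. The interaction used all 12 samples, with 4 group means, and was called at an adjusted p under 0.05 and over 2-fold. The study's methods name TCC, over 2-fold and p under 0.01. TCC was not run. The deposited values are RPKM, and recovered reads were used in alternatives only. On simulated data for the positive comparison, 77% of genes 4-fold higher and 88% of genes 4-fold lower were recovered and 5 of 15816 unchanged genes were called. The changed genes excluded those with few reads, so recovery of low genes was not measured. The simulated spread was independent between genes, so shifts shared by a library were not covered. Library totals and reads were recovered from the values with gene lengths of GENCODE 44 mapped to GRCh37, with all 19654 genes above 0 whole within 0.01 of a read. They served for bounds, voom and thinning. Read-based limits cover counting error only.

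Members and gene lists were chosen with earlier results of these data known. Named were all members of the lists of the antigen complex, Lewis enzymes, EMT factors and drivers, up to 3 called members per direction of each other list (mean of at least 1 RPKM), the 10 largest differences per direction (at least 10 RPKM, no overlap), the 5 most abundant called genes per direction, the 5 largest and 5 smallest interactions (at least 5 RPKM), the genes of silent runs, and the 3 most variable genes per line. Of 744 list members measured, 622 passed the filter. Alternatives were other pseudocounts, filters, thresholds and scalings, voom, thinned reads, no trend, a joint fit, a replicate block and leaving out each sample. Coordinates of 93.2% of tested genes came from GENCODE 44. Python 3.11.15 with pandas 2.3.3 and numpy 2.4.6 was used for tables. Some genes that these rules name are not reported here.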

Additional observations from a re-analysis of the deposited data

Results flagged for a closer look

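For 97 genes of those described, the difference between the lines itself changed with the antigen in the test of the difference (limma, Benjamini-Hochberg adjusted p under 0.05 over all genes, over 2-fold). The value in parentheses is the log2 difference between the lines in positive cells minus that in negative cells, so that a positive value is a shift in favour of SW1990 among positive cells. It was positive for 50 genes and negative for 47. In 8 of them, *SDC2*, *CXCL6*, *IL8*, *FUT2*, *KLK10*, *MUC16*, *HSD11B1* and *FOXJ1*, the line difference was called in both populations in opposite directions. Over 2124 combinations of gene and alternative, 1917 gave the same call, and 55 of the 97 genes had it under every alternative that tested them. The call was lost with 1 of the 12 libraries left out for 18 genes, which were *ADAMTS3*, *ALDH3A1*, *ANO1*, *CD68*, *CSAG1*, *CST4*, *FUT3*, *HOXC11*, *IFITM1*, *IL1B*, *ITGB3*, *KRT20*, *MTAP*, *PNMAL1*, *S100A2*, *SCD*, *TSPAN8* and *ZNF257*. It was lost for another 24 only under alternatives that keep all libraries, such as another pseudocount or voom.

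Among genes of sugar synthesis and mucins, the shift was toward SW1990 for *FUT1* (1.22), *FUT2* (2.33), *FUT3* (1.66), *FUT6* (1.77), *B3GALT5* (2.07) and *B3GNT3* (4.03), and for *MUC2* (4.21), *MUC4* (4.69), *MUC16* (4.44) and *MUC20* (4.82). Keratins and junction proteins with the same sign were *KRT19* (1.71), *KRT20* (1.93), *KRT23* (3.52), *KRT6B* (2.53), *KRT15* (3.03), *KRT16* (2.70), *CLDN3* (3.47) and *CLDN4* (3.84). Squamous and barrier genes with the same sign were *SPRR1B* (3.42), *SPRR2A* (3.28), *SPRR2E* (3.88), *SERPINB2* (1.61), *SERPINB3* (2.73), *SERPINB4* (2.72), *LY6D* (2.20), *VGLL1* (4.18), *S100A2* (1.0) and *S100A9* (2.56). Secreted proteases, their inhibitors and regulators with the same sign were *KLK8* (4.90), *KLK10* (3.55), *KLK11* (4.38), *WFDC2* (5.03), *CST1* (3.58), *CST4* (1.98), *MMP28* (1.54), *PLAU* (1.21) and *TGM2* (1.24). Transcription factors with the same sign were *FOXJ1* (6.67), *ELF3* (1.99) and *FOXA3* (2.35). Membrane proteins and transporters with the same sign were *GABRP* (6.56), *AQP5* (2.38), *ANO1* (1.03), *CD24* (3.02), *UPK2* (3.40) and *IFITM1* (1.37). The others were *HSD11B1* (4.85), *SCD* (1.22), *CALB1* (1.15) and *PNMAL1* (1.10).

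Toward CFPAC-1, the shift was found for the secreted or surface signals *CXCL6* (-5.50), *IL8* (-4.30), *IL1B* (-2.0), *NRG1* (-1.91), *BTC* (-1.38) and *IGFBP5* (-3.28), and for the regulators *ID3* (-5.22), *SNAI1* (-2.62), *ZEB1* (-2.17), *NR5A2* (-1.85), *HOXC8* (-1.21), *HOXC11* (-1.02), *ZNF257* (-1.31) and *TGFBR1* (-1.78). Matrix and adhesion genes with the same sign were *SDC2* (-6.55), *SPARC* (-3.91), *LUM* (-2.70), *MMP2* (-3.16), *MMP24* (-1.22), *TIMP3* (-2.19), *COL4A1* (-1.44), *COL18A1* (-1.69), *ADAMTS3* (-1.26), *CCBE1* (-1.61), *ITGB3* (-1.35), *ITGB8* (-1.26), *CDH2* (-1.44) and *CDH5* (-3.50). Enzymes with the same sign were *AKR1C3* (-3.48), *AKR1B10* (-2.66), *ALDH3A1* (-3.19), *ALDH1A1* (-1.62), *CA12* (-2.23) and *MTAP* (-1.01). Cancer-testis genes with the same sign were *MAGEA3* (-5.98), *MAGEA6* (-2.12), *MAGEA12* (-3.61) and *CSAG1* (-2.91). The others were *APOA1* (-5.23), *CLDN1* (-2.65), *CLDN2* (-3.30), *CLDN18* (-3.10), *TSPAN8* (-2.20), *ANXA10* (-1.81), *KRT5* (-2.38), *FXYD2* (-2.72) and *CD68* (-1.21). With voom on recovered reads the *MAGEA3* interaction was not called (adjusted p 0.101). Genes without reads in 1 line, such as *MAGEA3*, *CALB1* and *ALDH1A1*, have an interaction that depends on the pseudocount.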

How the results depend on the processing

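Counts of called genes moved most with the fold threshold. Over 4-fold, 761 genes were higher in SW1990 and 914 in CFPAC-1 in positive cells, 1191 and 1110 in negative cells, and 86 and 85 over the members of all lists. Without a fold threshold the counts were 3407 and 3121 in positive and 5578 and 3826 in negative cells. With a pseudocount of 1, 872 genes had a negative interaction, against 1365. With quantile normalization the split was 2844 and 2695 in negative cells and 1089 and 1095 for the interaction. Leaving out each sample in turn gave 1611 to 2237 and 1671 to 2022 genes in positive cells, 3089 to 3323 and 2155 to 2325 in negative cells, and 762 to 997 and 1204 to 1472 for the interaction. Those fits leave a line with 2 samples, and what the fewer samples contribute to these counts was not tested. Whether replicate numbers pair the samples is not settled by the values. Same-numbered samples of the lines deviated together with r of 0.20, 0.15 and 0.02 in positive cells. Differently numbered ones had r from -0.18 to 0.02 there. In negative cells the r of same-numbered samples was -0.045, -0.0070 and -0.00094. With the replicate number as a block, 2098 and 2001 genes were called in positive cells, 3194 and 2224 in negative cells and 907 and 1378 for the interaction. Of 225 named genes tested, 160 had the same call under every alternative that tested them (of 20, and 28 genes did not pass the filter of 1 RPKM), and 200 under those of scaling, filter, pseudocount and model. The larger side of the positive split turned with median centring (2005 and 2155), over 4-fold, and without SW1990 replicate 2 or 3. No called difference of a named gene in positive cells changed sign, and 3 that were not called did (*HES4*, *FCGBP* and *ZEB1*). Of the interactions, that of *ITGB3* turned to 0.25 with a pseudocount of 1, and that of *SERPINB2* to -0.35 with a pseudocount of 0.01 and -0.27 with voom. Single-library losses of named calls are given beside them. At the lowest depth, 9969697 reads, 3 reads of a gene of 1 kilobase come to 0.301 RPKM, so levels near that value rest on few reads.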
